A study of Homo sapiens with 6 samples.

Results

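The genes described here are 10 secreted signalling proteins: the colony-stimulating factors CSF1, CSF2 and CSF3, the IL-6 family members LIF, IL6 and IL11, and the IL-1 family members IL1A, IL1B, IL18 and IL1RN. They were chosen by gene name, and all 10 were found among the 58735 genes of the deposited expression table. RNA was sequenced from SK-MES-1, an established human cell line from a squamous cell carcinoma of the lung. KRT6A, a type II keratin, had been knocked down transiently in 2 groups, called si1 and si2 in the labels, and a group called NC served as control. Each group had 2 libraries. The labels give no sequence or type for the knockdown or control reagents, and do not say that si1 and si2 are different reagents against KRT6A. All groups share the same line, and nothing says that replicates came from separate cultures, so the p-values below speak of the spread among these 6 libraries, which may be technical.

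Colony-stimulating factors act on receptors of myeloid cells and their precursors, where they promote survival, proliferation and maturation. Cytokines of the IL-6 family bind private receptor chains and signal through the shared chain IL6ST to JAK kinases and STAT3. IL-1 cytokines signal through IL1R1 and IL1RAP by way of MYD88, are countered by the antagonist IL1RN, and are released from epithelial cells as alarm signals. Messenger RNAs of many of these cytokines are short-lived, because AU-rich stretches of the 3′ untranslated region recruit decay proteins.

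Each library held between 14948607 and 17401392 reads assigned to genes, as recovered from the deposited values. Across genes, libraries of the same group correlated at r of 0.983 to 0.987, and libraries of different groups at 0.947 to 0.967. KRT6A had 0 reads in all 6 libraries, NC included, which allows levels of up to 0.0583 to 0.0678 FPKM (fragments per kilobase of gene, scaled to library depth) for counting error, so its knockdown could not be checked in these values. Of 6 epithelial markers 5 reached a mean of 1 FPKM, and the adhesion molecule CDH1 stayed at or under 0.256 FPKM. Their summed level was 370 to 376 FPKM in si1, 264 to 277 FPKM in si2 and 355 to 379 FPKM in NC. Of 6 squamous and basal markers TP63 alone did, so the squamous label was not borne out by these markers. DSG3 had 0 reads, KRT5 and KRT14 were near 0, and the 6 summed to 5.58 to 6.0 FPKM in si1, 11.7 to 13.9 FPKM in si2 and 6.02 to 6.69 FPKM in NC. Of 7 leukocyte markers CD14 alone reached 1 FPKM. CD3E had 0 reads, and the summed leukocyte level was 1.54 to 2.09 FPKM in si1, 2.18 to 2.22 FPKM in si2 and 1.74 to 2.14 FPKM in NC. Of 5 fibroblast markers COL1A1 and PDGFRB reached 1 FPKM, COL1A2 had 0 reads, and the sum was 20.0 to 25.0 FPKM in si1, 22.8 to 23.4 FPKM in si2 and 17.1 to 17.5 FPKM in NC. The part of these markers in the results was not tested.

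The 3′ untranslated regions of most of these cytokines hold the pentamer ATTTA, the core of AU-rich elements. The stretch of 30 bases with the most copies is shown for the 5 members that carry 5 or more and changed in some comparison, and for IL11, which had fewer reads in each knockdown library than in either NC library. Sequences are from GENCODE 29 transcripts on hg38, written along the transcript strand, with every ATTTA in capitals. For each gene a single protein-coding transcript was used, the longest of those marked as principal, or the longest where none was. Copies in other transcripts were not counted. The stretches lie at chr5:132076076-132076105 on the plus strand for CSF2, chr22:30240522-30240551 on the minus strand for LIF and chr7:22731704-22731733 on the plus strand for IL6. The others lie at chr19:55365943-55365972 for IL11, chr2:112774424-112774453 for IL1A and chr2:112829995-112830024 for IL1B, all on the minus strand.
CSF2: aaaatATTTATTTATTTATTTATTTAagtt
LIF: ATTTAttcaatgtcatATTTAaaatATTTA
IL6: tatttttaATTTAttaatATTTAaatatgt
IL11: ccagatcttATTTATTTATTTAtttcagta
IL1A: tATTTAtatatgtATTTAtaaatatATTTA
IL1B: cgcttccctATTTATTTATTTAtttgtttg

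In CSF2, IL11 and IL1B the pentamers run into each other as ATTTATTTA, while in LIF, IL6 and IL1A they stand apart. The CSF2 region holds 8 copies in 318 bases, or 25.2 per kilobase, and IL6 holds 6 copies in 429 bases, or 13.99 per kilobase. IL1B has 9.84 copies per kilobase, CSF3 8.20, IL11 5.56, IL1A 4.34, LIF 2.19 and CSF1 1.86. IL18 and IL1RN have none. Among 10677 tested protein-coding genes 71.5% hold at least 1 copy and the median density is 1.72 per kilobase, counted on the sense strand with overlaps allowed. The 5 members that fell in si1 had from 0 (IL18) to 25.2 (CSF2) copies per kilobase. CSF1 and IL6, which were not called in si1, had 1.86 and 13.99. Whether the density had a part in any change was not tested, and decay of messenger RNA was not measured.

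**Figure D1:**
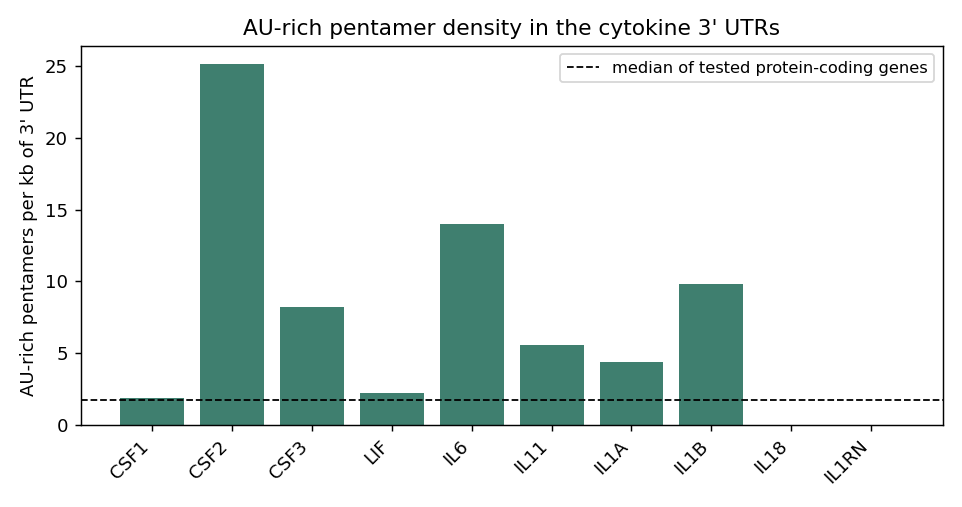
Copies of ATTTA per kilobase of 3′ untranslated region for each of the 10 cytokine genes, with the median of 10677 tested protein-coding genes as a line. CSF2 stands highest at 25.2 per kilobase, and IL18 and IL1RN are at 0.

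Of the 10 members, 7 were expressed at a mean of 1 FPKM or more over the 6 libraries and could be tested, while IL11, CSF3 and IL1RN stayed below. In si1, 5 of the 7 tested members fell and none rose. In si2, 2 rose (IL6 and IL1A) and 2 fell (LIF and IL18). The knockdown groups also differed from each other, and 6 of 7 were higher in si2 than in si1 and none was lower, and CSF1 was not called. A lower level in bulk RNA cannot tell fewer cells of a type from less RNA per cell.

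These counts come from limma on log2(FPKM + 1) with Benjamini-Hochberg adjustment over 12319 genes, on a scale that understates the change of low genes. In si1 against NC, 9.47% of all tested genes were called higher and 12.9% lower. In si2 against NC, 13.6% were called higher and 15.4% lower. In si2 against si1, 19.9% of all genes were called higher and 18.6% lower. No member was called higher in si1 than in NC, or lower in si2 than in si1, and the same was so at an unadjusted p under 0.05 and with limma voom on recovered reads, with 0 in each case. The median log2 fold change of the 7 members was −1.11 in si1 and −0.04 in si2 against NC, and 0.99 in si2 against si1. The medians over all genes were −0.0071, 0.0046 and 0.011 in the same order of comparisons. Comparisons with NC share the 2 NC libraries.

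**Figure D2:**
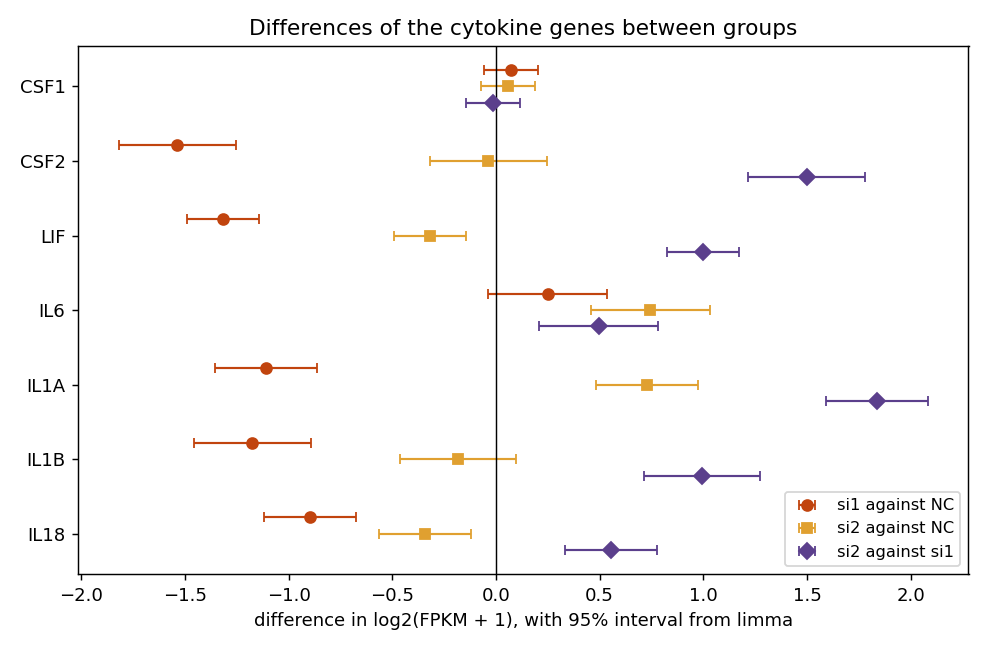
Log2 fold changes, on the log2(FPKM + 1) scale, of the 7 tested cytokine genes in the comparisons of si1 and of si2 with NC and of si2 with si1, with 95% intervals from limma as bars. In si1 the values of CSF2, LIF, IL1A, IL1B and IL18 lie between −1.54 and −0.90, whereas in si2 IL6 and IL1A lie at 0.74 and 0.73.

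CSF1 was the most abundant member by a wide margin in every group, ranking 206 among all genes by mean FPKM. In si1 its mean was followed by CSF2, LIF, IL1A, IL18, IL6 and IL1B. In si2 the order was CSF1, CSF2, IL1A, LIF, IL18, IL6 and IL1B, and in NC it was CSF1, CSF2, LIF, IL1A, IL18, IL1B and IL6. Neighbours in these orders overlapped between libraries for LIF with IL1A in si1 and for CSF2 with IL1A in si2, and were apart otherwise.

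**Figure D3:**
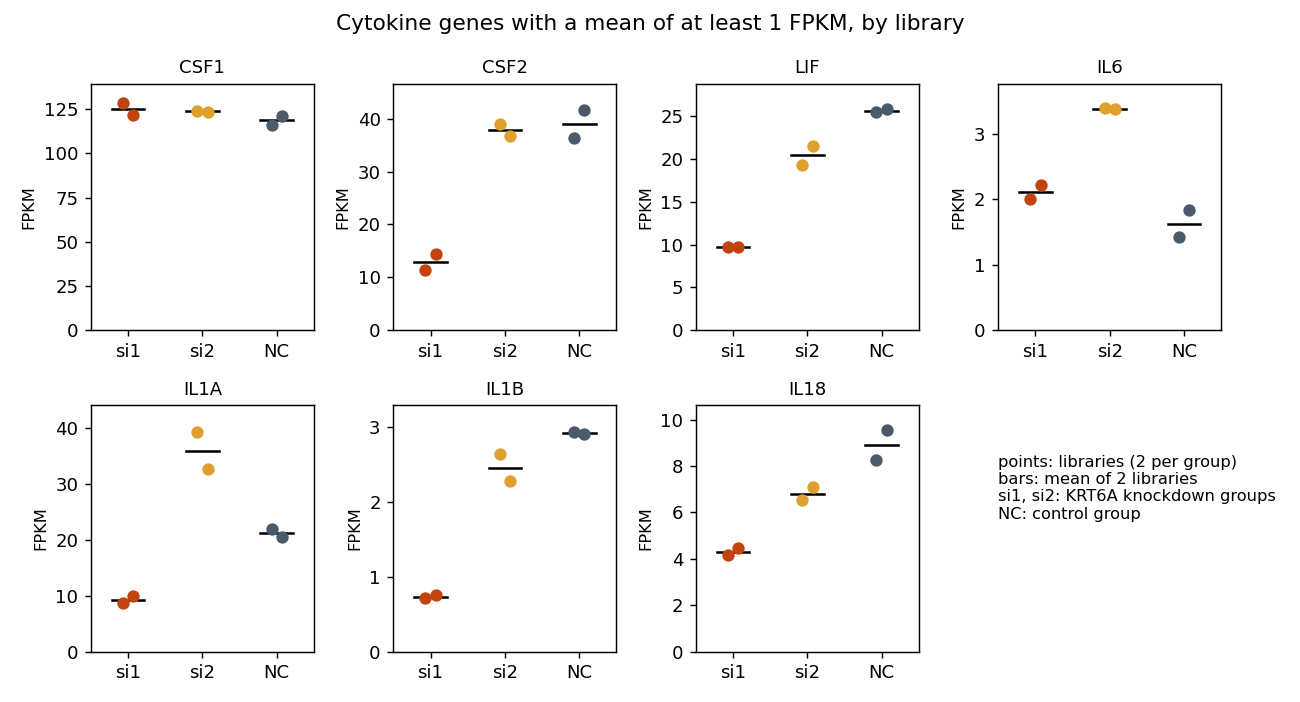
FPKM of the 7 tested cytokine genes in si1, si2 and NC, with a panel and a linear axis from 0 for each gene, a point per library and a bar at the mean. CSF1 stays between 116 and 129 FPKM in all 6 libraries, while the 2 si1 libraries lie below all others for CSF2, LIF, IL1A, IL1B and IL18.

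CSF1, the macrophage colony-stimulating factor, lies at chr1:109910242-109930992 on the plus strand of hg38. It had 129 and 122 FPKM in the si1 libraries, 124 and 123 FPKM in si2, and 116 and 121 FPKM in NC. All 6 libraries lay close together, and the test found no difference. Its log2 fold change was 0.07 in si1 against NC (95% interval −0.06 to 0.20, adjusted p = 0.395), 0.06 in si2 against NC (interval −0.07 to 0.19, adjusted p = 0.469) and −0.01 in si2 against si1 (interval −0.15 to 0.12, adjusted p = 0.861).

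CSF2, the granulocyte-macrophage colony-stimulating factor, lies at chr5:132073790-132076170 on the plus strand. It had 11.3 and 14.4 FPKM in si1, 39.1 and 36.7 FPKM in si2, and 36.3 and 41.7 FPKM in NC, from 145 to 576 reads a library. Both si1 libraries were far below the other 4, and the si2 and NC libraries overlapped. CSF2 averaged 12.8 ± 2.22 FPKM in si1 and 39.0 ± 3.77 FPKM in NC (SD, n = 2 each), a ratio of 0.329, and fell by 1.54 on the log2 scale (SE 0.12, adjusted p = 0.000385). In si2 its mean was 37.9 ± 1.67 FPKM and the log2 fold change against NC was −0.04 (interval −0.32 to 0.24, adjusted p = 0.845). It was 2.95 times as high in si2 as in si1 (log2 fold change 1.5, SE 0.12, adjusted p = 0.000202). CSF3, the granulocyte factor at chr17:40015361-40017813, had 5 and 0 reads in si1, 6 and 6 reads in si2 and 0 reads in both NC libraries, which allow up to 0.0809 and 0.0769 FPKM. Its highest value was 0.179 FPKM, in an si2 library.

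LIF, the leukaemia inhibitory factor, lies at chr22:30240447-30246851 on the minus strand. It had 9.74 and 9.69 FPKM in si1, 19.3 and 21.5 FPKM in si2, and 25.5 and 25.9 FPKM in NC. The 3 groups did not overlap, with si1 lowest and si2 in between. LIF averaged 9.72 ± 0.0339 FPKM in si1, 20.4 ± 1.56 FPKM in si2 and 25.7 ± 0.304 FPKM in NC (SD, n = 2 each). It fell by 1.32 in si1 on the log2 scale (SE 0.0736, adjusted p = 0.000131) and by 0.32 in si2 (SE 0.0736, adjusted p = 0.0192), and its level in si2 exceeded that in si1 by 1.00 (SE 0.0736, adjusted p = 0.000166). The fall in si2 was not called without NC replicate 1 (adjusted p = 0.0908), NC replicate 2 (0.111) or si2 replicate 1 (0.125), or without the filter on low values (0.0538), out of 13 alternatives that ranged over 0.00362 to 0.125. The antisense genes AC004264.1 and LIF-AS1 overlap LIF, with at most 8 and 2 reads a library, and whether reads were counted by strand is not given.

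IL6, the inflammatory cytokine that gives the family its name, lies at chr7:22725884-22732002 on the plus strand. It had 2.01 and 2.23 FPKM in si1, 3.40 and 3.39 FPKM in si2, and 1.42 and 1.84 FPKM in NC. The si2 libraries were above all others, and si1 lay just above NC. The values rest on 68 and 78 reads in si1, 111 and 106 in si2 and 49 and 67 in NC. IL6 rose in si2, where it averaged 3.39 ± 0.00525 FPKM against 1.63 ± 0.302 FPKM in NC (SD, n = 2 each), a ratio of 2.08 (log2 fold change 0.74, SE 0.122, adjusted p = 0.00546). In si1 the mean was 2.12 ± 0.154 FPKM and the log2 fold change was 0.25 (interval −0.04 to 0.54, adjusted p = 0.191). The difference of si2 from si1 was 0.49 (SE 0.122, adjusted p = 0.0178), and it was not called without si1 replicate 1 (adjusted p = 0.0773), si2 replicate 1 (0.0769) or si2 replicate 2 (0.0706), or without the filter (0.0768), out of 13 alternatives that ranged over 0.014 to 0.0773. STEAP1B on the opposite strand overlaps IL6 over 1730 bases and held 3.10 to 3.65 FPKM, and the antisense gene AC073072.1 overlaps it with at most 16 reads, so reads in the overlaps are uncertain without the strand setting.

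The promoters of IL6 and IL1A, the 2 members that rose in si2, are shown from RefSeq (GRCh38.p14), 250 bases before to 50 after the transcript start. In IL6 (chr7:22726950-22727249, plus strand) capitals mark, in order, a CRE half-site TGACGT found on the other strand, a C/EBP motif TTGCNCAA and the NF-kB consensus. In IL1A (chr2:112784351-112784650, minus strand) capitals mark 2 copies of the AP-1 motif TGANTCA. Both strands were searched.
IL6: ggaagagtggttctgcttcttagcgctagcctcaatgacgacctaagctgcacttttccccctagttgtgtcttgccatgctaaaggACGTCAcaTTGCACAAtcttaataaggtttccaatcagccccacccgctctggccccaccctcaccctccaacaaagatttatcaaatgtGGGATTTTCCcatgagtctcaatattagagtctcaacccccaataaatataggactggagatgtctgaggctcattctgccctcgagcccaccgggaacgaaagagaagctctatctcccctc
IL1A: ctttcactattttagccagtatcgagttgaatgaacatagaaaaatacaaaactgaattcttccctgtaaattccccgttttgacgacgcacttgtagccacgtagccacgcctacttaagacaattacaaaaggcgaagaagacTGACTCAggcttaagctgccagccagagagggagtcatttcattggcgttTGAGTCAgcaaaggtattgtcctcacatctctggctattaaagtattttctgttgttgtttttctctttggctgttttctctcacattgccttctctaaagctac

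The IL6 matches start at positions −163, −155 and −73 from the transcript start, and those of IL1A at −105 and −55. RefSeq lists a further IL1A start upstream (window chr2:112784444-112784743), from which the same AP-1 matches lie at −12 and 38. Among 35116 RefSeq promoters of this length, 11.3% held the NF-kB consensus, 7.71% the AP-1 motif, 2.61% the C/EBP motif and 7.98% the CRE half-site. The promoters of CSF2 and IL1B held none of the 4 motifs in this window, and IL11 held an AP-1 match. IL1RN held an AP-1 match at −223 for 1 of its 3 listed starts. CSF1, CSF3, LIF and IL18 had no entry among these promoters and were not searched. A match describes letters and no binding was measured here.

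IL11, a cytokine of stroma and epithelium, lies at chr19:55364389-55370463 on the minus strand. It had 3 and 0 reads in si1, 0 and 6 in si2, and 22 and 25 in NC, equal to 0.0687 and 0 FPKM, 0 and 0.149 FPKM, and 0.493 and 0.533 FPKM. All 4 knockdown libraries lay below both NC libraries, at levels far below those of LIF. Scaled for depth, its summed reads in si1 were 0.0664 times those in NC (95% exact interval 0.0132 to 0.206), and in si2 0.142 times (0.0495 to 0.332), intervals that cover counting error only. When the filter on low values was dropped, limma called IL11 lower in si1 (log2 fold change −0.55, adjusted p = 0.0454) and not in si2 (−0.50, adjusted p = 0.0509).

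**Figure D4:**
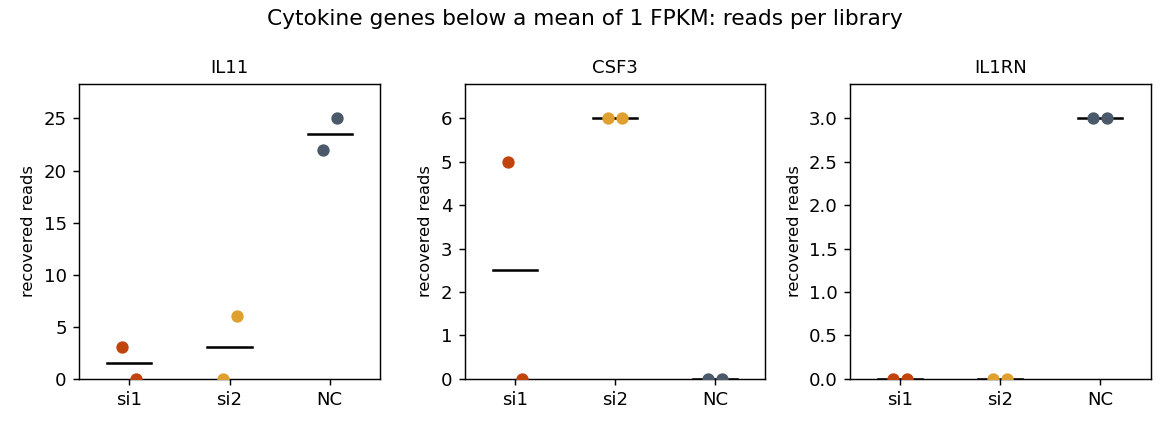
Recovered reads per library of the 3 cytokine genes below a mean of 1 FPKM in si1, si2 and NC, with a point per library and a bar at the mean. IL11 has 22 and 25 reads in NC and at most 6 in any knockdown library, CSF3 has 0 reads in NC, and IL1RN has 3 reads in each NC library and 0 elsewhere.

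IL1A, the IL-1 form that is active without cleavage and is released by damaged epithelium, lies at chr2:112773915-112784590 on the minus strand. It had 8.73 and 9.90 FPKM in si1, 39.2 and 32.7 FPKM in si2, and 21.9 and 20.5 FPKM in NC. The groups did not overlap and moved to opposite sides of NC, with si1 below and si2 above. IL1A averaged 9.31 ± 0.833 FPKM in si1, 35.9 ± 4.63 FPKM in si2 and 21.2 ± 0.978 FPKM in NC (SD, n = 2 each). It fell in si1 by 1.11 on the log2 scale (SE 0.104, adjusted p = 0.000767) and rose in si2 by 0.73 (SE 0.104, adjusted p = 0.00327). It was 3.86 times as high in si2 as in si1 (log2 fold change 1.84, SE 0.104, adjusted p = 6.23e-05), the largest such ratio among the 7 tested members.

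IL1B, the IL-1 form made as a precursor that CASP1 cleaves, lies at chr2:112829751-112836903 on the minus strand. It had 0.711 and 0.763 FPKM in si1, 2.64 and 2.29 FPKM in si2, and 2.94 and 2.91 FPKM in NC, from 36 and 40, 129 and 107, and 152 and 158 reads. The si1 libraries were far below the rest, and the si2 libraries lay under NC by a small margin. IL1B fell in si1 to a mean of 0.737 ± 0.0369 FPKM against 2.92 ± 0.0227 FPKM in NC (SD, n = 2 each), a ratio of 0.252 (log2 fold change −1.18, SE 0.119, adjusted p = 0.000986). With a pseudocount of 0.1 the log2 fold change was −1.85, and with limma voom it was −1.96. In si2 it averaged 2.46 ± 0.249 FPKM, and its log2 fold change was −0.18 (interval −0.46 to 0.10, adjusted p = 0.292). It was 3.34 times as high in si2 as in si1 (log2 fold change 0.99, SE 0.119, adjusted p = 0.000994), and 1.61 and 1.71 on the log2 scale under the same alternatives.

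IL18, a caspase-processed IL-1 family cytokine made constitutively in epithelium, lies at chr11:112143251-112164117 on the minus strand. It had 4.17 and 4.45 FPKM in si1, 6.53 and 7.07 FPKM in si2, and 8.27 and 9.55 FPKM in NC. The groups did not overlap, and si2 was again in between. IL18 averaged 4.31 ± 0.202 FPKM in si1, 6.80 ± 0.385 FPKM in si2 and 8.91 ± 0.912 FPKM in NC (SD, n = 2 each). It fell in si1 by 0.90 (SE 0.0936, adjusted p = 0.0011) and in si2 by 0.34 (SE 0.0936, adjusted p = 0.0328), and its level in si2 exceeded that in si1 by 0.55 (adjusted p = 0.00394). The fall in si2 was not called without NC replicate 1 (adjusted p = 0.0533), NC replicate 2 (0.193), si2 replicate 1 (0.161) or si2 replicate 2 (0.0784), or without the filter (0.108), out of 13 alternatives that ranged over 0.031 to 0.193. The gene AP002884.3 on the opposite strand overlaps IL18 over 20867 bases and had 0 reads in every library, and the strand setting is not given. IL1RN, the antagonist that blocks IL1R1, at chr2:113107214-113134016, had 3 reads in each NC library and 0 in all 4 knockdown libraries, so no fold change is given. The 0 reads allow up to 0.0544 to 0.0609 FPKM in si1 and si2.

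Averaged over si1 and si2 against NC, IL6 rose and CSF2, LIF, IL1B and IL18 fell. Against NC, CSF2 and IL1B were not called in si2 alone, and IL6 was not called in si1 alone. The count was 1 higher and 4 lower of 7, where 8.73% of all genes were called higher and 11.8% lower. The members' median log2 fold change was −0.62, against −0.010 over all genes. LIF fell by 0.82 (SE 0.0637, adjusted p = 0.000559), CSF2 by 0.79 (adjusted p = 0.00317), IL1B by 0.68 (adjusted p = 0.00544) and IL18 by 0.62 (adjusted p = 0.00311), and IL6 rose by 0.50 (adjusted p = 0.0186). IL1A stood at −0.19 (adjusted p = 0.188), although its mean FPKM was 1.07 times that of NC, with si1 and si2 on opposite sides of NC. With the 4 knockdown libraries as 1 group, so that the spread between si1 and si2 counted as error, 0 members were called by limma and 2 had an unadjusted p under 0.05. The lowest adjusted p was then 0.257. IL6 was also not called without NC replicate 1 (adjusted p = 0.139), NC replicate 2 (0.0508), si2 replicate 1 (0.0526) or si2 replicate 2 (0.0508), or without the filter on low values (0.09), and was called in 8 of 14 alternatives over a range of 0.0174 to 0.338. Without the filter the 5 called members had all fallen, with IL11 among them (log2 fold change −0.52, adjusted p = 0.041). IL1B was not called without NC replicate 1 (0.0624) or NC replicate 2 (0.0579), over a range of 0.000188 to 0.444, and its log2 fold change was −1.05 with a pseudocount of 0.1 and −1.10 with voom.

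The receptors divide by family, and levels here are FPKM, which is already scaled by gene length. Of the 4 receptor genes of the colony-stimulating factors none reached a mean of 1 FPKM: CSF1R stood at 0.190 to 0.516 FPKM, CSF2RA and CSF3R at or under 0.104 FPKM, and CSF2RB had 0 reads in all libraries, which allows up to 0.0342 to 0.0397 FPKM. Of 7 receptor chains of the IL-6 family 5 were tested. IL6ST, the shared chain, had 57.8 and 58.4 FPKM in si1, 61.6 and 56.8 FPKM in si2, and 80.4 and 75.3 FPKM in NC, and the knockdown libraries all lay below NC. It fell by 0.41 in si1 (SE 0.0656, adjusted p = 0.00553) and by 0.39 in si2 (SE 0.0656, adjusted p = 0.00605). IL6R, the IL-6 binding chain, averaged 3.16 ± 0.354 FPKM in si1, 5.85 ± 0.132 FPKM in si2 and 3.23 ± 0.305 FPKM in NC, and rose in si2 by 0.70 (adjusted p = 0.00351). LIFR, the chain that binds LIF, averaged 9.83 ± 0.0395 FPKM in si1, 12.8 ± 0.13 FPKM in si2 and 9.98 ± 0.566 FPKM in NC, and rose in si2 by 0.33 (adjusted p = 0.0148). In si1 neither was called. IL11RA held 0.470 to 0.667 FPKM, and CNTFR had 0 reads. In si1 0 of 5 were called higher and 1 lower, in si2 2 higher and 1 lower, and the list medians were −0.02 in si1 and 0.04 in si2. At an unadjusted p under 0.05, 0 were higher in si1, and voom called 0 higher there. Among all tested genes, limma called 9.47% higher and 12.9% lower in si1, and 13.6% and 15.4% in si2.

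Of 9 receptors and decoys of the IL-1 family 5 were tested. In si1 limma called 0 in either direction, with 0 higher and 2 lower at an unadjusted p under 0.05 and 0 higher and 2 lower by voom. In si2 2 rose and 0 fell, with 0 lower also at an unadjusted p under 0.05 and by voom, and in si2 against si1 1 was higher. The shares over all genes were 9.47% higher and 12.9% lower in si1, and 13.6% and 15.4% in si2. For si2 against si1 the share called higher was 19.9%. IL1R1, the signalling receptor, averaged 1.66 ± 0.0105 FPKM in si1, 2.29 ± 0.097 FPKM in si2 and 1.41 ± 0.131 FPKM in NC, and rose in si2 by 0.45 (SE 0.119, adjusted p = 0.0296). IL1RAP, its partner chain, averaged 2.22 ± 0.0891 FPKM in si1, 3.82 ± 0.135 FPKM in si2 and 2.84 ± 0.0607 FPKM in NC, and rose in si2 by 0.33 (adjusted p = 0.0396). The excess of IL1RAP in si2 over si1 was 0.58 (adjusted p = 0.00332). IL18BP, the IL-18 decoy, averaged 1.38 ± 0.417 FPKM in si1, 1.85 ± 0.144 FPKM in si2 and 2.06 ± 0.282 FPKM in NC and was not called. IL18R1, a chain of the IL-18 receptor, averaged 0.629 ± 0.0251 FPKM in si1, 1.31 ± 0.369 FPKM in si2 and 1.34 ± 0.105 FPKM in NC. It was not called in si1 (log2 fold change −0.52, adjusted p = 0.0694) or in si2. IL18RAP, the other chain, held at most 0.0446 FPKM.

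**Figure D5:**
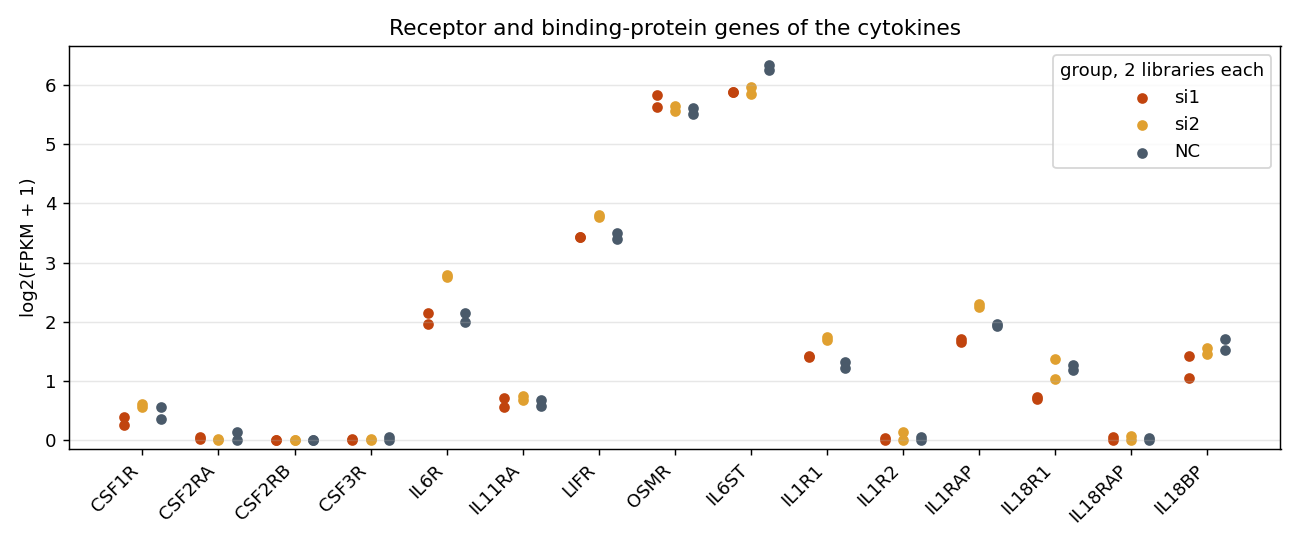
Levels of receptor and binding-protein genes as log2(FPKM + 1) in si1, si2 and NC, with a point per library. The 4 receptors of the colony-stimulating factors stay under 1 FPKM, IL6ST is at 56.8 to 61.6 FPKM in the knockdown libraries against 75.3 and 80.4 FPKM in NC, and IL6R, LIFR, IL1R1 and IL1RAP are highest in si2.

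Of 15 genes of JAK-STAT signalling and its inhibitors 13 were tested, and in si1 2 of them rose and 3 fell, whereas in si2 2 rose and 2 fell. The list medians were 0.02 in si1 and −0.06 in si2. Among all tested genes 9.47% were called higher and 12.9% lower in si1, and 13.6% and 15.4% in si2. STAT3, the transcription factor downstream of IL-6 and LIF, averaged 38.1 ± 3.22 FPKM in si1, 22.4 ± 1.86 FPKM in si2 and 23.1 ± 1.41 FPKM in NC. It rose in si1 by 0.70 (SE 0.091, adjusted p = 0.00247), and in si2 its log2 fold change was −0.04 (adjusted p = 0.761). STAT5B, a transcription factor downstream of CSF2 receptors, fell in both groups, by 0.45 in si1 (adjusted p = 0.00653) and 0.41 in si2 (adjusted p = 0.00797). SOCS3, the feedback inhibitor induced by STAT3, was chosen after its values were seen. It averaged 32.6 ± 2.03 FPKM in si1, 22.8 ± 0.975 FPKM in si2 and 24.2 ± 0.323 FPKM in NC, and rose in si1 by 0.41 (adjusted p = 0.00748). SOCS2 and PIAS3, inhibitors of the same list, fell in si1, by 0.60 (adjusted p = 0.02) and 0.49 (adjusted p = 0.0137). Neither was called in si2 against NC.

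All 13 genes of IL-1 receptor signalling were tested, and 1 rose and 1 fell in si1, against 2 that rose and 3 that fell in si2. The list medians were 0.06 in si1 and −0.03 in si2. The shares over all genes were 9.47% higher and 12.9% lower in si1, and 13.6% and 15.4% in si2. MYD88, the adaptor of IL-1 and IL-18 receptors, had 12.4 and 10.3 FPKM in si1, 3.36 and 3.95 FPKM in si2, and 14.2 and 15.3 FPKM in NC. The si2 libraries were far below the other 4. MYD88 fell by 1.76 in si2 (SE 0.109, adjusted p = 0.000185), its log2 fold change in si1 was −0.35 (adjusted p = 0.0599), and it was lower in si2 than in si1 by 1.41 (adjusted p = 0.000187). IRAK2, a kinase of the same complex, averaged 13.9 ± 0.803 FPKM in si1, 16.3 ± 1.56 FPKM in si2 and 12.1 ± 0.654 FPKM in NC, and rose in si2 by 0.40 (adjusted p = 0.0169).

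Of 14 genes for processing and release of IL-1 and IL-18, 10 were tested. In si1 1 rose and 1 fell, and in si2 2 rose and 5 fell. The list medians were 0.04 in si1 and −0.35 in si2. Among all tested genes 9.47% were called higher and 12.9% lower in si1, and 13.6% and 15.4% in si2. CAPNS1, the small subunit of the calpains that cleave the IL1A precursor, averaged 75.8 ± 0.348 FPKM in si1, 29.7 ± 0.303 FPKM in si2 and 71.4 ± 1.31 FPKM in NC. It fell in si2 by 1.24 (SE 0.0544, adjusted p = 6.64e-05). IL1A rose in si2, and a link between the 2 was not tested. GSDME, a pore-forming gasdermin, averaged 9.95 ± 0.805 FPKM in si1, 6.25 ± 0.194 FPKM in si2 and 10.8 ± 0.931 FPKM in NC, and fell in si2 by 0.71 (adjusted p = 0.00214). CASP8, a caspase that can cleave IL1B, averaged 10.2 ± 1.05 FPKM in si1, 13.2 ± 0.814 FPKM in si2 and 8.46 ± 0.17 FPKM in NC, and rose in si2 by 0.59 (adjusted p = 0.00414). CASP1, chosen after its values were seen, had 3.13 and 2.84 FPKM in si1, 1.39 and 0.680 FPKM in si2, and 2.14 and 2.39 FPKM in NC, and fell in si2 by 0.70 (adjusted p = 0.0259).

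All 11 genes of AU-rich element and cytokine mRNA decay were tested. In si1 2 rose and 0 fell by limma, with 2 lower at an unadjusted p under 0.05 and 1 lower by voom, and in si2 3 rose and 1 fell. The list medians were −0.08 in si1 and 0.07 in si2. The shares over all genes were 9.47% higher and 12.9% lower in si1, and 13.6% and 15.4% in si2. ZC3H12A, the nuclease that degrades IL6 messenger RNA, averaged 34.8 ± 0.551 FPKM in si1, 44.2 ± 2.52 FPKM in si2 and 30.7 ± 0.0725 FPKM in NC. It rose in si2 by 0.51 (SE 0.0642, adjusted p = 0.00195). IL6 also rose in si2, and a link between the 2 was not tested. ZFP36L1, a protein that binds AU-rich elements, averaged 51.1 ± 0.993 FPKM in si1, 51.2 ± 0.487 FPKM in si2 and 42.9 ± 0.949 FPKM in NC, and rose by 0.25 in both (adjusted p = 0.0222 in si1 and 0.018 in si2). RC3H2 was the gene of this list that fell in si2, by 0.30 (adjusted p = 0.026). Its log2 fold change in si1 was −0.22 (adjusted p = 0.0772).

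Few other ligands of these families were expressed. Of 8 further IL-6 family ligands 2 were tested, and OSM had 0 reads. CLCF1, a ligand of CNTFR, averaged 8.88 ± 0.558 FPKM in si1, 15.3 ± 1.89 FPKM in si2 and 8.08 ± 0.197 FPKM in NC, and rose in si2 by 0.84 (SE 0.0973, adjusted p = 0.00149). CTF1, cardiotrophin, averaged 1.57 ± 0.0129 FPKM in si1, 0.567 ± 0.21 FPKM in si2 and 1.58 ± 0.105 FPKM in NC, and fell in si2 (log2 fold change −0.73, adjusted p = 0.0151). Its values rest on few reads, 43 and 44 in si1, 11 and 18 in si2, and 46 and 44 in NC. None of 7 further IL-1 family ligands reached a mean of 1 FPKM. Of 6 other haematopoietic cytokines KITLG, the ligand of the KIT receptor, was tested. It had 42.1 and 46.4 FPKM in si1, 33.8 and 31.6 FPKM in si2, and 23.6 and 21.4 FPKM in NC, and rose by 0.94 in si1 (SE 0.0801, adjusted p = 0.000498) and by 0.52 in si2 (SE 0.0801, adjusted p = 0.00435).

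Genes whose log2(FPKM + 1) followed that of a member most closely were listed by Pearson's r over the 6 libraries, as a description without a test, since the libraries form 3 groups and 42 to 1073 genes passed an r of 0.9 for each member. For CSF2 they were WWTR1 (r = 0.998), SNU13 and SLC35G2, and for LIF they were MAPKAPK2 (0.999), ISOC1 and FAM126A. MAPKAPK2, a kinase that acts in the p38 pathway, averaged 18.2 FPKM in si1, 30.4 FPKM in si2 and 36.3 FPKM in NC. For IL6 they were CMC2 (0.992), HSBP1 and IL1R1 (0.989), and for IL1A NUP155 (0.998), ATP1B1 and GEN1. For IL1B they were PABPC1L (0.998), WIPF1 and PDIA4, for IL18 KRT15 (0.999), HDDC2 and MFSD2A, and for CSF1 TSPAN4 (0.976), FHOD1 and FRAT1.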

How the data were processed

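The authors deposited FPKM, fragments scaled by gene length and library depth, for 58735 genes in 6 libraries. Per the submitters' processing notes hg38 was the build. The aligner, counter, annotation and strand setting are not given in the sources used here. Start and end of 58724 genes were those of GENCODE 29, for all 10 members too. Multiplying FPKM by gene length gave whole multiples of 1 read within 0.001 reads for 100% of the values, from which reads were recovered. A gene with 0 reads was given an upper limit of 3 reads.

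limma 3.58.1 in R 4.3.3 was fitted with a mean trend to log2(FPKM + 1) of all 6 libraries, with 1 coefficient per group, for the 12319 genes whose mean reached 1 FPKM. Tests were two-sided, with Benjamini-Hochberg adjustment over all genes tested and calls at 0.05. The fit was run on simulated reads in which the changed genes changed alike in si1 and si2. That run was a check of the code and does not bear on the calls given here. FPKM errors are the SD of 2 libraries, and log2 errors are limma's SE. Alternatives were 2 rescalings, a pseudocount of 0.1, no filter, voom on recovered reads, no trend, a replicate block, each library left out, and the knockdown libraries as 1 group. Same-numbered libraries had deviations correlated at −0.058 to 0.050, so the numbers were not taken to pair samples.

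The members and gene lists were chosen with earlier results of these data known. All members and their receptors could be named, up to 4 genes per list by the size of change in si1 and si2 together, and the 3 genes most like each member, other than clone names, pseudogenes and non-coding RNAs. Any other gene is said to be chosen after its values were seen.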

Additional observations from a re-analysis of the deposited data

Results flagged for a closer look

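For 6 of the 7 tested members the change from NC differed between si1 and si2, by limma's test of si2 against si1. The difference in log2 fold change was 1.84 for IL1A, with si2 above and si1 below NC. It was 1.5 for CSF2, 1.00 for LIF and 0.99 for IL1B, all of which fell in si1. Against NC in si2, LIF was called lower, and CSF2 and IL1B were not called. The difference was 0.55 for IL18, which fell in both groups, and 0.49 for IL6, for which si2 alone was called against NC. Of all tested genes 19.9% were called higher in si2 than in si1 and 18.6% lower. The reason for the difference between the groups was not tested.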

How the results depend on the processing

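The calls in si1, those of IL6 and IL1A in si2, and those of CSF2, LIF, IL1A, IL1B and IL18 in si2 against si1 held under all 13 alternatives run for each. Leaving out 1 library gave 3 to 5 called members for si1 and si2 together, 5 for si1, 2 to 4 for si2 and 5 to 6 for si2 against si1. With the knockdown libraries as 1 group 0 were called, against 5, and without the filter 2 were called in si2, against 4. With the replicate number as a block the counts were 5, 5, 4 and 6, and the block changed no call of a member. CSF2 in si2, near 0 throughout, was at −0.13 to 0.06 when 1 library was left out, positive without NC replicate 2 (0.059) and without si2 replicate 2 (0.0062). CSF1 in si2 against si1 was at −0.055 to 0.026, positive without si1 replicate 1 (0.026). Over all genes 2529 were called for both groups together, against 1127 without the filter, 716 and 703 without NC replicates 1 and 2, 1601 and 1646 without si2 replicates 1 and 2, and 84 with the knockdown libraries as 1 group. In si1 2758 were called, against 1414 without the filter and 1093 and 1255 without NC replicates 1 and 2. In si2 3578 were called, against 1785 without the filter and 1491 to 1944 when an NC or si2 library was left out. In si2 against si1 4743 were called, against 3130 without the filter and 2938 without si2 replicate 1. With 2 libraries a group, and 49 to 111 reads for IL6, precision is low, and the cause of lost calls was not tested.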
